A study of Sus scrofa domesticus and Sus scrofa with 18 samples.

Results

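Of 12913 protein-coding genes measured in pig spleen, 50 (0.387%) had a mean level that rose at each of the 4 steps from the fetus to the adult. They were chosen by their own values: the mean log2(FPKM+1) of a stage had to exceed that of the stage before by at least 0.25 at every step, the last step had to stay below 0.75, and the mean over all 18 libraries had to stay below 10. FPKM is a fragment count scaled to the length of the transcript and to the mapped reads of the library, so that levels of different genes can be compared per length. Of the 50 genes, 21 could be paired with a symbol and 29 are known here only by an identifier, of which 4 carry an OTTSUSG number in place of an Ensembl number.

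The libraries came from spleens of female Rongchang pigs, a Chinese domestic breed, with 3 pigs at each of E55d (fetuses 55 days before birth), B0d (newborns), W30d (pigs weaned for 30 days), A180d (pigs of 180 days) and A2Y (pigs of 2 years), and from 3 female Wild Boars (WB), also 2 years old. No pig carried a treatment or an engineered allele. The E55d libraries have no usable replicate number and entered as 3 libraries of the stage. Breed and origin of the animals cannot be told apart in a comparison of WB with A2Y. The p-values rest on the spread between the 3 animals within a group, pooled over all 6 groups.

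The spleen filters blood and is a secondary lymphoid organ. Before birth it takes part in making blood cells in many mammals, and after birth its white pulp fills with B and T lymphocytes while the macrophages of the red pulp remove old red cells. In whole tissue, fewer cells of a type and less RNA per cell cannot be told apart, so every level below is a level in the organ.

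Some libraries stood apart. Averaged over the 50 genes after each gene was centred on its own mean, the level was from -1.85 to -1.82 in the E55d libraries, -0.78 to -0.47 at B0d, -0.12 to 0.39 at W30d, 0.45 to 0.76 at A180d, 0.91 to 1.10 at A2Y and 0.70 to 0.91 in WB. The highest W30d value belonged to the second library, which was the highest of its stage for 38 of the 50 genes. It was the highest of its stage for 45.6% of all genes. It lay above the A180d mean for 15 of the 50. One gene without a symbol took from 36.9 to 53.6% of all protein-coding FPKM in 16 libraries and was listed at 0 in the first and second A180d libraries. Without those 2 libraries, the limits gave 39 genes, of which 14 were among the 50. Without the second W30d library they gave 53 genes, of which 34 were among the 50. Rescaling every library without the most abundant gene put the median change of all genes at -0.36 from W30d to A180d and at 0.53 from A180d to A2Y, and the 33 genes that then met the limits held 0 of the 50, so the membership holds for the values as deposited.

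**Figure D1:**
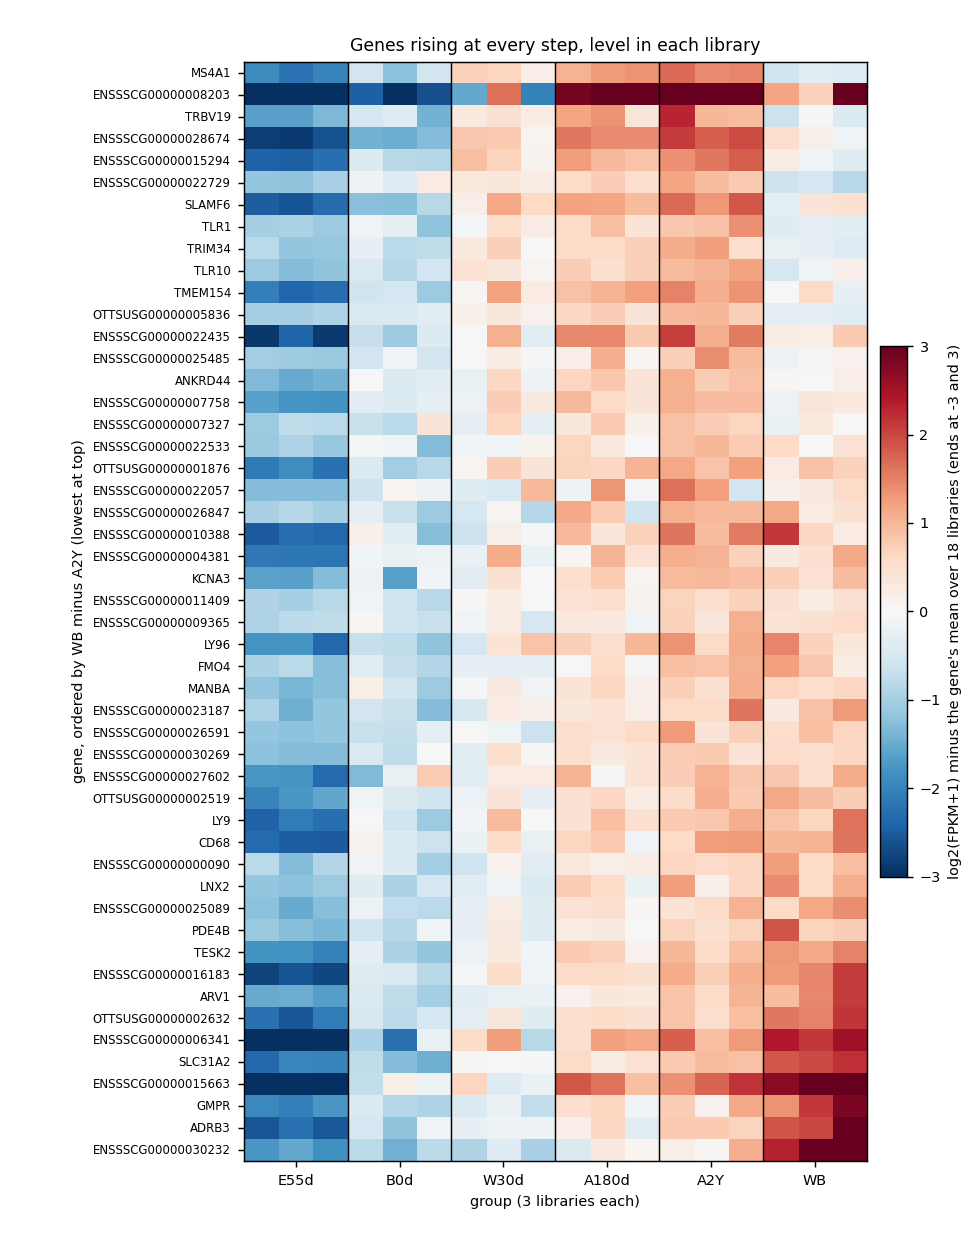
Level of the 50 genes (rows) in the 18 libraries (columns, 3 per group), as log2(FPKM+1) minus the gene's mean over all libraries. From left to right the group means of the domestic stages rise in every row by the choice of the genes, though single libraries depart from this, while in WB most rows at the top fall back towards or below the mean and the rows at the bottom are the highest.

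The rise from E55d to A2Y ranged from 1.52 to 8.24 on the log2 scale, with a median of 2.52 against 0.23 over all genes. Its direction and least size were fixed by the choice. In FPKM, the median of the genes was 1.68 at E55d and 16 at A2Y, and 15 genes had a mean FPKM under 1 at E55d. A log2 difference of FPKM+1 understates the change of such low genes.

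The rise was uneven over time. The median step was 1.04 at birth (E55d to B0d), 0.49 up to W30d, 0.43 up to A180d and 0.38 up to A2Y, where the medians of all genes were 0.13, 0.03, -0.00092 and 0.07. The first step was the largest for 30 genes, the second for 12, the third for 6 and the last, which the choice had capped, for 2. On median, 37.4% of the rise fell between E55d and B0d. Without the second W30d library the median step was 0.46 from B0d to W30d and 0.62 from W30d to A180d.

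**Figure D2:**
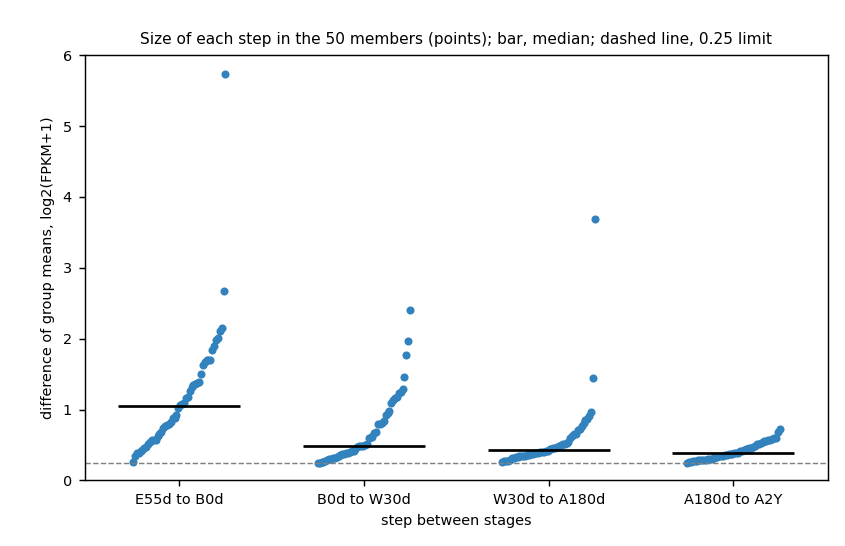
Difference between the mean log2(FPKM+1) of consecutive stages (vertical axis) for each of the 50 genes (points) at each of the 4 steps, with the median as a bar and the limit of 0.25 as a dashed line. The medians are 1.04, 0.49, 0.43 and 0.38, and the largest single steps are 5.73 at birth and 3.69 from W30d to A180d.

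A rise in the mean was often not a rise in every animal. All libraries of the later stage lay above all of the earlier one for 40 of the 50 genes at the first step, 24 at the second, 15 at the third and 17 at the last. Over all genes the shares were 33.7, 15.4, 21.1 and 26.1%. The genes were selected on these same contrasts, so nothing is read from the counts. By limma with Benjamini-Hochberg adjustment at 0.05, 35, 18, 8 and 1 of the 50 were called higher at the 4 steps, beside 22.3, 8.01, 12.8 and 10.8% of all genes. The libraries did not overlap at any of the 4 steps for 5 genes, namely MS4A1, TLR10, SLC31A2, ARV1 and ENSSSCG00000028674. Another 7 genes had 3 such steps, 19 had 2, 17 had 1 and 2 had 0. The shares of all genes by number of such steps are not given here. The choice favours such steps, so nothing is read from these counts either.

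The limits cut through a continuous range. The smallest step of a gene just inside was 0.2505, for the identifier OTTSUSG00000002632, and 0.243 for the gene just outside. In 20 of the 50 the smallest step was under 0.3, and 38 further genes missed the limit with a smallest step between 0.20 and 0.25. The cap on the last step left out 6 genes, the nearest being NTN4 with a last step of 0.81, and FMO4 had the largest last step inside it, 0.73. The limit on the mean level left out 0 genes.

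When each domestic library was left out in turn, between 40 and 71 genes met the limits on the other libraries. The left-out library lay above the mean of the stage before and below that of the stage after in 52.8 to 83.7% of those genes for W30d, in 80.4 to 91.5% for B0d and in 78.3 to 82.2% for A180d. Over all genes these shares were 19.2 to 23.2% for W30d, 25.8 to 34.3% for B0d and 16.4 to 17.6% for A180d. At the ends of the series only 1 neighbour exists, and the shares were 98.1 to 100% for E55d and 60.6 to 87.5% for A2Y. Over all genes they were 54.9 to 63.3% for E55d and 50.4 to 63.7% for A2Y. In the genes that met the limits, the means on either side of the left-out library were ordered by the choice. Their shares describe how single libraries lay between these means and are no test of the rise. Among the genes that met the limits, the lowest share, 52.8%, came from the second W30d library. The largest set, 71 genes, came from leaving out the second A2Y library.

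Several of the genes with a symbol encode surface proteins of lymphocytes. MS4A1 encodes CD20, a membrane protein of B cells. Its log2(FPKM+1) was 2.49, 2.18 and 2.39 at E55d, 3.85, 3.16 and 3.85 at B0d, 5.08, 5.04 and 4.59 at W30d, 5.43, 5.67 and 5.75 at A180d and 6.08, 5.80 and 5.85 at A2Y. The 3 libraries of each stage lay above those of the stage before. In WB the values were 3.80, 4.05 and 4.0, below every W30d library and nearest to the B0d mean of 3.62.

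SLAMF6 and LY9 belong to the SLAM family, receptors through which lymphocytes contact each other by binding a copy of themselves on the other cell. SLAMF6 went from 0.57, 0.47 and 0.73 at E55d to 1.80, 1.78 and 2.22 at B0d, 3.22, 4.22 and 3.65 at W30d, 4.25, 4.23 and 3.99 at A180d and 4.74, 4.35 and 4.92 at A2Y. The second W30d library alone reached the A180d range. For LY9 the libraries read 1.80, 2.13 and 1.97 at E55d, 4.24, 3.65 and 3.14 at B0d, 4.14, 5.18 and 4.22 at W30d, 4.69, 5.14 and 4.71 at A180d and 5.03, 5.04 and 5.31 at A2Y, and beyond the first step neighbouring stages overlapped.

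TRBV19, whose product is a variable segment of the T cell receptor beta chain, was named after its values were seen. It was at 0, 0 and 0.29 at E55d, 1.12, 1.25 and 0.22 at B0d, 1.92, 2.08 and 1.84 at W30d, 2.82, 2.98 and 2.00 at A180d and 3.93, 2.63 and 2.55 at A2Y. Only the step to W30d was free of overlap. Reads of similar variable segments can be shared between them, so the level of this single segment is uncertain.

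Of the pattern recognition receptors, which sense microbial products, 3 were among the 50 genes. TLR1 encodes a Toll-like receptor that pairs with the product of TLR2 to bind bacterial lipopeptides, TLR10 encodes a relative of it, and LY96 encodes the MD-2 protein with which TLR4 binds lipopolysaccharide. TLR10 read 1.26, 1.02 and 1.14 at E55d, 1.89, 1.48 and 1.75 at B0d, 2.78, 2.67 and 2.42 at W30d, 3.07, 2.82 and 3.04 at A180d and 3.29, 3.35 and 3.55 at A2Y. TLR1 read 2.21, 2.23 and 2.11, then 3.05, 2.89 and 1.98, then 3.15, 3.73 and 3.43, then 3.78, 4.09 and 3.60, and last 4.0, 4.07 and 4.58 at the same 5 stages, with overlap at all steps but that from B0d to W30d.

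LY96 was the highest of the 3, with 3.26, 3.25 and 2.67 at E55d, 4.33, 4.26 and 3.82 at B0d, 4.52, 5.43 and 5.88 at W30d, 5.74, 5.53 and 6.01 at A180d and 6.37, 5.60 and 6.13 at A2Y. Its first and second steps were of like size, 1.08 and 1.14. TLR4, its partner and not one of the 50, rose at birth from a mean of 2.37 to 5.22 and then stayed between 5.01 and 5.62.

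The genes of TLR10 and TLR1 are direct neighbours in the RefSeq annotation of Sscrofa11.1, which is not the build of the files and served only for gene order. TLR6, the next gene beside TLR1, was not among the 50 and missed the limits at 3 steps. Its mean rose by 0.03 from E55d to B0d, fell by 0.40 from W30d to A180d and rose by 0.88 from A180d to A2Y. It stood at 1.71, 1.74, 2.52, 2.12 and 3.01 in the means of the 5 stages. These 3 receptors resemble each other in sequence, and how reads that fit more than one of them were assigned was not tested. LY9 and SLAMF6 lie on 1 chromosome with 5 genes between them. Of these 5, CD48, SLAMF1 and CD84 were measured, and none rose at the last step: their A2Y minus A180d differences were -0.15, -0.04 and -0.04. TLR6, CD48, SLAMF1 and CD84 were chosen for this look after values were seen.

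CD68 encodes a lysosomal membrane glycoprotein abundant in macrophages. It was at 1.71, 1.56 and 1.54 at E55d, 4.13, 3.61 and 3.39 at B0d, 3.82, 4.58 and 3.80 at W30d, 4.67, 4.81 and 3.93 at A180d and 4.63, 5.28 and 5.31 at A2Y. The step at birth, 2.11, made up most of its rise, and the later stages overlapped. TMEM154, a transmembrane protein gene, read 1.86, 1.51 and 1.63, then 3.31, 3.37 and 2.81, then 3.95, 5.12 and 4.14, then 4.78, 4.93 and 5.13, and finally 5.40, 5.00 and 5.24.

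Other members have roles outside immune recognition. ADRB3, the beta-3 adrenergic receptor known from fat cells, was near 0 at E55d (0.08, 0.41 and 0.10) and at 3.44, 3.43 and 3.33 at A2Y, after 2.13, 1.44 and 2.55 at B0d. Of the 4 fat cell markers listed for comparison, 0 were in the table by symbol. GMPR, guanosine monophosphate reductase of purine metabolism, rose from 3.61, 3.50 and 3.79 at E55d to 6.28, 5.68 and 6.68 at A2Y. SLC31A2, a membrane protein of the copper transporter family, rose without overlap at every step, from 0.36, 0.76 and 0.70 to 1.95, 1.40 and 1.24, then 2.75, 2.72 and 2.67, then 3.28, 2.93 and 3.14, and last 3.49, 3.66 and 3.58.

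**Figure D3:**
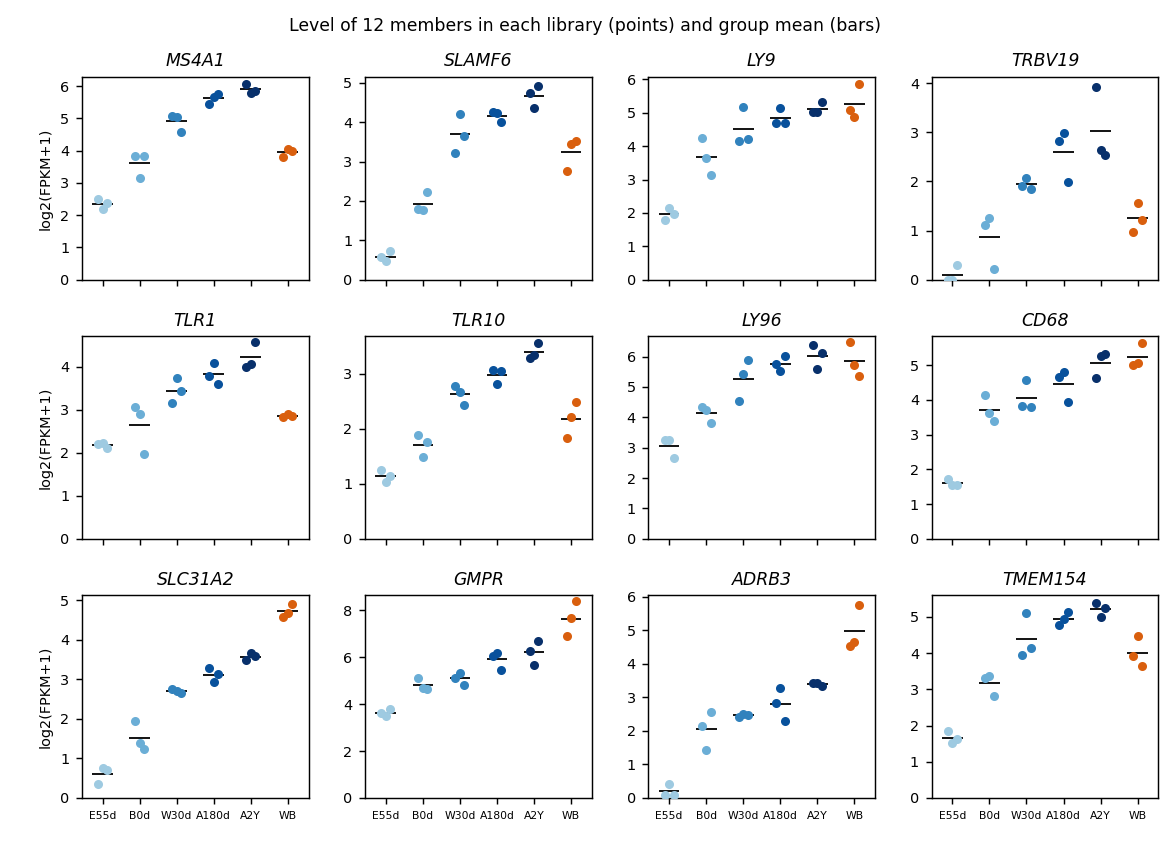
log2(FPKM+1) of 12 of the genes (vertical axis of each panel, from 0) in each library (points) with the mean of each group (bars), for the 5 domestic stages and WB. The A2Y libraries are the highest of the domestic stages on average in every panel, and the WB points lie below all A2Y points for MS4A1, SLAMF6, TRBV19, TLR1, TLR10 and TMEM154 and above them for SLC31A2, GMPR and ADRB3.

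The remaining genes with a symbol were named after their values were seen. KCNA3, a voltage-gated potassium channel of T cells, rose by 2.45 and MANBA, the lysosomal beta-mannosidase, by 2.03 from E55d to A2Y. PDE4B, a phosphodiesterase that breaks down cyclic AMP, rose by 1.87, and TESK2, a protein kinase that acts on cofilin, by 2.70. For ARV1, a gene of sterol handling in the endoplasmic reticulum, the rise was 2.36 and free of overlap at all 4 steps. ANKRD44 (2.31), TRIM34 (2.01), FMO4 (1.95) and LNX2 (1.83) complete the 21.

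The largest changes belonged to genes without a symbol. ENSSSCG00000008203 went from 1.45, 1.68 and 2.53 at E55d to 9.83, 9.64 and 10.9 at A2Y, which is a mean FPKM of 2.90 against 1206. The largest of its 4 steps, 3.69, came between W30d, with 5.03, 8.20 and 4.53, and A180d, with 9.42, 9.60 and 9.81. The second W30d library lay far above the others of its stage and still below every A180d library. ENSSSCG00000015663 did the opposite and rose at birth, from 0.44, 1.70 and 1.57 to 6.47, 7.39 and 7.05, after which it reached 8.57, 8.95 and 9.37 at A2Y. ENSSSCG00000006341 rose by 5.14, ENSSSCG00000028674 by 4.72 and ENSSSCG00000022435 by 4.29. ENSSSCG00000028674 had no overlap at any step, with 1.11, 1.05 and 1.31 at E55d and 6.03, 5.71 and 5.89 at A2Y.

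The stages alone do not tell whether a high adult level is shared by pigs of another population, and WB entered the choice of genes only through the limit on the mean over all libraries. A2Y was the stage of the highest mean for every gene by that choice, so a difference between WB and A2Y has a base line that was selected to be high. Of the 50 genes, 15 were lower in WB than in A2Y, 8 were higher and 27 were not called (limma, Benjamini-Hochberg adjusted p of at most 0.05). Over all genes, 9.57% were called lower and 10.8% higher. The median difference of the 50 was -0.22, with quartiles of -1.14 and 0.34, against 0.01 over all genes, and the median size without sign was 0.66 against 0.29. All 3 WB libraries were below all 3 A2Y libraries for 18 genes and above them for 9, beside 17.4 and 17.5% of all genes.

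The WB mean was higher than all 5 domestic stage means for 17 of the 50 genes and higher than 4 of them for 14. The 5 stage means were in rising order by the choice, so a WB mean above that of A2Y was above all 5. It was higher than 3 for 5 genes, than 2 for 13 and than 1 for 1. Of the 15 genes called lower, 14 had a WB mean below that of W30d. The largest step of these 15 was that from B0d to W30d for 8 and that from E55d to B0d for 7. Of the 8 called higher it was the step at birth for 6, and of the 27 not called for 17. The steps were values that the choice used, so nothing is read from these counts.

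**Figure D4:**
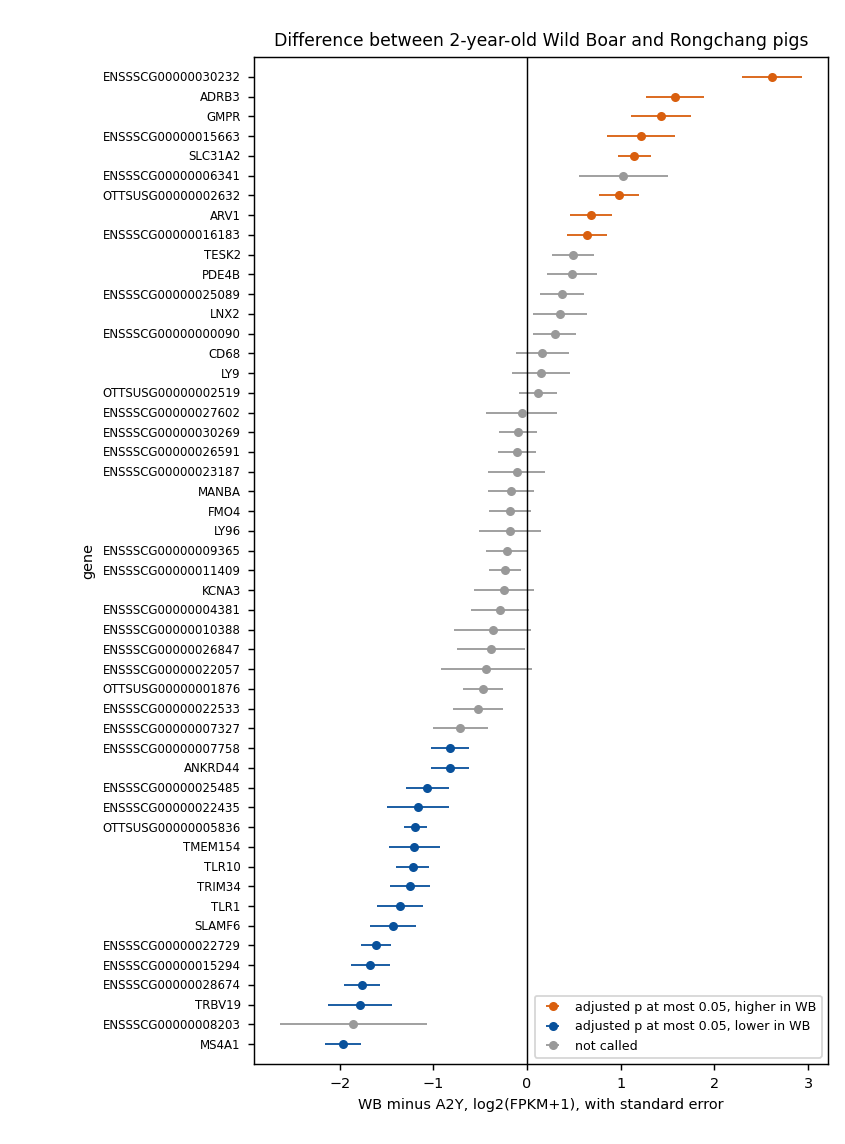
WB minus A2Y on the log2(FPKM+1) scale (horizontal axis) with its standard error from limma for each of the 50 genes (vertical axis), ordered by the difference. The 15 genes called lower in WB (blue) run from -1.96 to -0.82, the 8 called higher (orange) from 0.64 to 2.61, and 27 are not called (grey).

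The lymphocyte genes were split. MS4A1 was lower in WB by 1.96 on the log2 scale (WB minus A2Y -1.96 ± 0.19 SE, limma adjusted p = 2.44e-05), and its mean FPKM was 14.5 against 59.4. SLAMF6, at 2.77, 3.44 and 3.51 in WB, differed by -1.43 ± 0.24 (SE, limma adjusted p = 0.00109). LY9 read 5.09, 4.87 and 5.86 in WB, which overlapped A2Y, and differed by 0.15 ± 0.31 (SE, limma adjusted p = 0.769). The difference of TRBV19, at 0.98, 1.57 and 1.21 in WB, was -1.78 ± 0.34 (SE, limma adjusted p = 0.00235).

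The receptors of microbial products were split as well. TLR1 read 2.84, 2.90 and 2.84 in WB, and its difference from A2Y was -1.36 ± 0.24 (SE, limma adjusted p = 0.00142). TLR10 read 1.83, 2.21 and 2.48, with a difference of -1.22 ± 0.17 (SE, limma adjusted p = 0.000331). LY96 read 6.48, 5.71 and 5.36, overlapped A2Y and differed by -0.19 ± 0.33 (SE, limma adjusted p = 0.732). Their neighbour TLR6 was lower too, by -1.25 ± 0.16 (SE, limma adjusted p = 0.000173), whereas TLR4 was higher by 0.91 ± 0.19 (SE, limma adjusted p = 0.00337).

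CD68 was not called, at 5.01, 5.07 and 5.63 in WB and a difference of 0.17 ± 0.28 (SE, limma adjusted p = 0.718). TMEM154 was lower, with 3.91, 4.48 and 3.65 in WB and a difference of -1.20 ± 0.27 (SE, limma adjusted p = 0.00615). TRIM34 and ANKRD44 were lower by -1.25 ± 0.21 and -0.82 ± 0.20 (SE).

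The genes higher in WB included ADRB3, GMPR, SLC31A2 and ARV1. ADRB3 read 4.53, 4.66 and 5.75 in WB, and its difference from A2Y was 1.58 ± 0.31 (SE, limma adjusted p = 0.00268). GMPR, at 6.89, 7.66 and 8.38, differed by 1.43 ± 0.32 (SE, limma adjusted p = 0.00594), and SLC31A2, at 4.58, 4.68 and 4.90, by 1.14 ± 0.18 (SE, limma adjusted p = 0.000562). All WB libraries were above all A2Y libraries for these 3 genes, whereas ARV1 (4.83, 5.34 and 6.0 in WB, difference 0.68 ± 0.23 SE) overlapped. The call of ARV1 (limma adjusted p = 0.0441) was lost when any of 14 of the 18 libraries was left out, and the difference was 0.38 without the third WB library. The third WB library, the highest of the 3 for 27 of the 50 genes, was also the highest of its group for 63.7% of all genes.

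Of the genes without a symbol, ENSSSCG00000030232 was the farthest above A2Y, with 4.14, 5.08 and 5.43 in WB against 2.02, 1.88 and 2.91. Its difference of 2.61 ± 0.32 (SE, limma adjusted p = 0.000123) exceeded its whole rise of 2.13 from E55d to A2Y. ENSSSCG00000015663 was higher by 1.22 ± 0.36, OTTSUSG00000002632 by 0.98 ± 0.21 and ENSSSCG00000016183 by 0.64 ± 0.21 (SE). The call of ENSSSCG00000016183 (limma adjusted p = 0.0442) was lost when any of 12 of the 18 libraries was left out, with a difference of 0.40 without the third WB library, and that of ENSSSCG00000015663 was lost without the first or the second A2Y library or without the second or the third WB library (1.02 to 1.21). ENSSSCG00000028674 (-1.76 ± 0.20), ENSSSCG00000015294 (-1.67 ± 0.21), ENSSSCG00000022729 (-1.61 ± 0.17), OTTSUSG00000005836 (-1.19 ± 0.12) and ENSSSCG00000022435 (-1.16 ± 0.33) were lower. The last of these was not called without the first or the third A2Y library or without the first or the second WB library (-1.17 to -0.91). ENSSSCG00000008203 had a large difference of -1.86 but a wide spread in WB (7.75, 7.24 and 9.83, SD 1.37) and a wider one at W30d (SD 1.99). Its SE of 0.79 draws on the spread within all 6 groups. It was not called (limma adjusted p = 0.106), though it was when either of 2 of the 18 libraries was left out (differences of -2.63 and -1.86). ENSSSCG00000006341 (1.03 ± 0.47) was not called either, though its WB libraries (7.15, 6.86 and 7.28) lay above all A2Y libraries (6.53, 5.64 and 6.03). Its SD was 1.02 at B0d and 1.07 at W30d, against 0.44 at A2Y and 0.21 in WB. It was called in 1 other setting, at the same difference. ENSSSCG00000010388 (-0.37 ± 0.41), OTTSUSG00000001876 (-0.47 ± 0.21) and ENSSSCG00000022057 (-0.44 ± 0.49) were not called.

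Counts of genes higher in WB moved with the libraries used. Without the first or the second A2Y library, or without the second or the third WB library, 5 of the 50 genes were called higher in place of 8. The shares of all genes called under the settings of this paragraph are not given here, so the shifts are not read as particular to the 50 genes. Rescaling without the most abundant gene moved the median difference of all genes to -0.30. When each library was rescaled without the most abundant gene, 2 were called higher, and GMPR (0.97), SLC31A2 (0.70), OTTSUSG00000002632 (0.52), ENSSSCG00000015663 (0.75), ARV1 (0.23) and ENSSSCG00000016183 (0.18) kept the sign but were no longer called.

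Against A180d, which shares the WB libraries with the comparison above, 11 of the 50 genes were higher in WB and 11 were lower, beside 12.5 and 5.14% of all genes. The median difference was 0.18 against 0.09 over all genes. MS4A1 differed by -1.67 ± 0.19 and SLAMF6 by -0.92 ± 0.24, while TLR1 and TLR10 differed by -0.96 ± 0.24 and -0.80 ± 0.17 (SE). ADRB3 was higher by 2.17 ± 0.31, GMPR by 1.74 ± 0.32 and SLC31A2 by 1.60 ± 0.18 (SE). Without the 2 A180d libraries that list the most abundant gene at 0, a single library of that stage is left, so calls are not given. Without the second A180d library 7 genes were called lower, and without the third 7 were called higher. The shares of all genes called in these fits are not given here, so the shifts are not read as particular to the 50 genes.

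Marker lists of spleen cell types show what else moved between the groups. Of 9 B cell markers 6 were measured, and all 6, MS4A1 included, were higher at A2Y than at E55d and lower in WB than in A2Y by limma at an adjusted p of 0.05. The rise of MS4A1 was fixed by the choice, and its A2Y level was selected to be high. The corresponding shares of all genes were 38.3% higher from E55d to A2Y and, as above, 9.57% lower in WB. CD79B, a signalling chain of the B cell receptor, differed between WB and A2Y by -1.36 ± 0.26 (SE) and CD22, a receptor that dampens its signal, by -1.15 ± 0.26 (SE). The summed FPKM of the 6 genes was 12.6 to 14.8 in the E55d libraries, 131 to 177 at A2Y and 44.1 to 50.2 in WB. The part of B cell number in the lower levels of MS4A1, SLAMF6 and TLR10 in WB was not tested.

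Other lists behaved differently. All 10 T cell markers measured of 14 were higher at A2Y than at E55d, but from A180d to A2Y their median change was -0.45, and 0 of the 10 were among the 50 genes. In WB 2 of the 10 were lower than in A2Y, CD3D by -1.10 ± 0.31 and CD2 by -1.01 ± 0.30 (SE). Of 8 macrophage and monocyte markers measured of 12, 7 were higher and 1, MRC1, was lower at A2Y than at E55d (20.2% of all genes were lower). The 7 include CD68, a member whose rise was fixed by the choice. In WB, VCAM1 and LYZ were higher than in A2Y, ITGAM was lower, and CSF1R, CD68, MARCO, MRC1 and SPIC were not called. The summed FPKM of the list was 919 to 1223 at A2Y and 1526 to 2012 in WB. This sum leans on VCAM1, the highest gene of the list, with a mean log2(FPKM+1) of 9.37 at A2Y and 10.19 in WB.

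Of 13 pattern recognition genes measured of 17, 10 were higher at A2Y than at E55d, beside 38.3% of all genes. Members made up 3 of these 10, and their rise was fixed by the choice. In WB 4 of the 13 were lower than in A2Y (TLR1, TLR3, TLR6 and TLR10) and 1 was higher (TLR4). All 14 cell division genes measured of 18 were lower at A2Y than at E55d, with a median difference of -2.32, and so were 4 of 5 erythroid genes measured of 15. In WB 3 of 5 smooth muscle genes and 4 of 6 stromal genes were higher than in A2Y, and the summed FPKM of the smooth muscle genes was 640 to 995 at A2Y and 1312 to 1969 in WB. How far these lists bear on ADRB3, GMPR and SLC31A2, which were higher in the same libraries, was not tested.

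**Figure D5:**
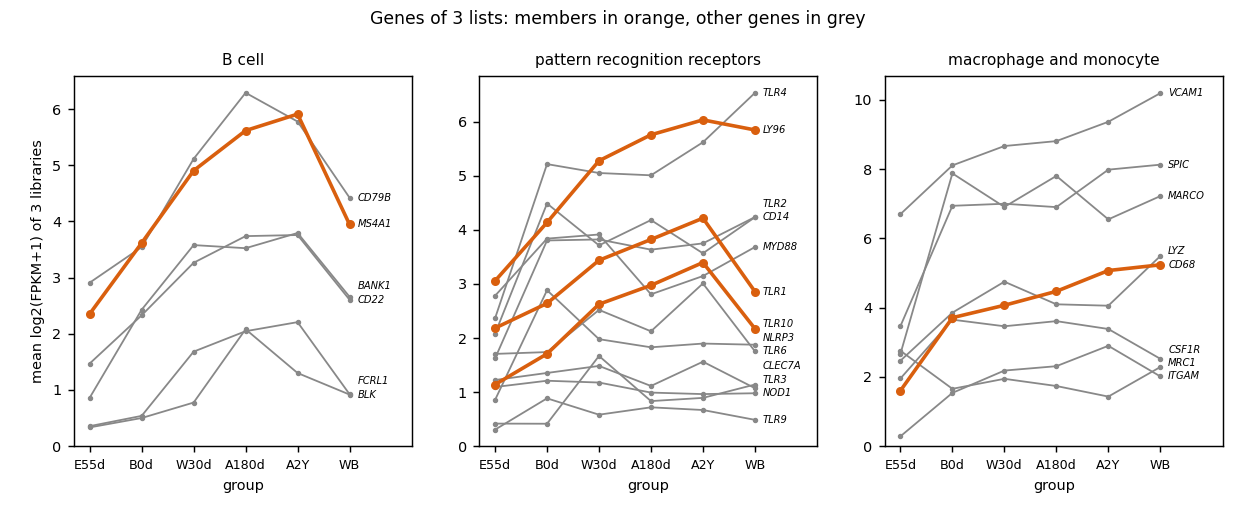
Mean log2(FPKM+1) of 3 libraries (vertical axis) in the 5 domestic stages and WB (horizontal axis) for each measured gene of the B cell, pattern recognition and macrophage lists, with the 5 members among the 50 genes in orange and the others in grey. Each of the 6 B cell genes drops from A2Y to WB, while LY96 and CD68 stay near their A2Y level.

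Among long noncoding RNAs (lncRNAs, transcripts without a recognised protein) from the same libraries, 7 of 15040 (0.0465%) met the same limits. The paper reports lower levels for lncRNAs than for protein-coding genes. At low levels a step of log2(FPKM+1) understates the change, so shares of lncRNAs and of protein-coding genes are not on equal terms. None had libraries free of overlap at all 4 steps, and those named here were chosen after their values were seen. TU50529 had the largest rise, from 0 in all E55d libraries to 3.47, 3.04 and 2.76 at A2Y, but only 1 of the 3 B0d libraries was above 0. TU66355 came closest to a steady rise, with no overlap at 3 steps and stage means of 1.69, 2.43, 3.02, 3.27 and 3.86. TU74534 was listed at 0 in the 3 WB libraries and at 1.99, 1.87 and 1.87 at A2Y. A step of at least 0.25 was found in 23.3, 7.99, 4.83 and 48.6% of lncRNAs at the 4 steps in turn, and in 41.0, 28.9, 29.4 and 32.6% of protein-coding genes. The paper lists more sequence data for every A2Y library than for any A180d or WB library. The part of sequencing depth in these lncRNA values was not tested.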

How the data were processed

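Spleen RNA of 18 animals in 6 groups of 3 was sequenced strand-specifically. Per the labels and methods, the authors mapped reads with TopHat to Sscrofa10.2 with replaced sex chromosomes, quantified transcripts with StringTie 1.3.3 and used Cufflinks 2.2.1 tools in filtering lncRNAs. The authors deposited log2 values, log2(FPKM+1), which do not hold the number of reads behind a value, so counting intervals are not given. The annotation release is not given in the sources used here.

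The design had assumed FPKM, and the log2 values were used as deposited, with empty lncRNA cells read as 0. Of 12913 identifiers, 8215 (63.6%) were paired with a symbol. FPKM above 0.1 in at least 3 libraries was required for testing, and all 12913 genes and all 50 members passed. Groups were compared with limma 3.58.1 (R 4.3.3) in 1 model of 18 libraries with a mean-variance trend and Benjamini-Hochberg adjustment over all genes at 0.05. Tested on simulated data, its share of false calls was 7.53%, somewhat above this limit. The simulated libraries of a gene had the same spread in every group. In the data the median SD over all genes ran from 0.12 at E55d to 0.25 in WB. The simulation therefore cannot show the effect of unequal spread. Other steps used Python 3.11.15. The members, the gene lists and the tests were chosen with earlier results of these data known. Named were the 15 members with the largest rise, the 5 highest at A2Y, the 5 with the smallest p in each direction between WB and A2Y, and those on a list, 24 in all. Alternatives were another pseudocount, 2 scalings, other filters and limits, other limma settings and each library left out in turn. Read counts were not used here, 1 gene of the B cell list is not reported here, and sequences are not shown.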

Additional observations from a re-analysis of the deposited data

How the results depend on the processing

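The set itself depended on its limits and on scaling. The limits gave 85 genes with a pseudocount of 0.1 (48 of the 50 among them), 27 with median-ratio scaling (22), 33 with each library rescaled without the most abundant gene (0), 1 with steps of at least 0.5, 722 with steps above 0, and 40 to 71 when 1 library was left out. Rescaling without the most abundant gene moved the median of all genes to -0.29, -0.36 and 0.53 at the last 3 steps, and for the 50 genes it gave medians of -0.070 from W30d to A180d, a reversal, and 1.00 from A180d to A2Y. With a pseudocount of 0.1 the median at birth was 1.53, and ENSSSCG00000015663 and ENSSSCG00000016183 were no longer called between A2Y and WB. Median-ratio scaling moved the median of all genes at birth from 0.13 to 0.01.

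Between A2Y and WB, 2 genes were higher and the median was -0.65 after rescaling without the most abundant gene, which moved the median of all genes to -0.30, and CD68 (-0.29) and LY9 (-0.30) reversed. Leaving out 1 library gave 5 to 8 higher and 14 to 17 lower genes, and reversed CD68 (-0.057 to 0.28), LY9 (-0.14 to 0.35), LY96 (-0.50 to 0.058) and ENSSSCG00000010388 (-0.93 to 0.0086). Between A180d and WB, that rescaling gave 5 lower genes, and leaving out 1 library gave 7 to 14 higher and 7 to 13 lower. A fit without the 2 A180d libraries that list that gene at 0 was an alternative chosen after seeing the data. It left a single library of that stage, which was assumed to vary like the other groups, so its calls are not given. The cause of these shifts was not tested.

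Same-numbered libraries of WB and of A2Y or A180d did not deviate together (r of -0.15 to 0.13), and the numbers pair no animals. Same-numbered libraries of the domestic stages were not compared with each other. With the replicate number as a block in a fit without E55d, ARV1, ENSSSCG00000016183 and ENSSSCG00000022435 were no longer called, 6 genes were higher and 14 lower between A2Y and WB, and 8 and 11 between A180d and WB. When A2Y and WB alone were fitted, 7 genes were higher and 16 lower, and ARV1 and ENSSSCG00000016183 were not called. For lncRNAs the count of 7 became 37 with a pseudocount of 0.1, 0 with steps of at least 0.5, 232 with steps above 0, and 4 (without the third W30d library) to 10 when 1 library was left out.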
